A study of Mus musculus with 3 samples.

Results

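The genes of citrulline and arginine metabolism described here are Cps1, Otc, Ass1, Asl, Arg2, Oat and Odc1. They were taken by their symbols, and all 7 were found among the 31053 genes of the files. Single cells came from 3 segments (duodenum, jejunum and ileum) of male wildtype C57BL/6N mice, and the animals were 12 weeks old. Detached epithelium of 3 mice was pooled for each segment, live cells were sorted, and 1 library was made per segment with 10x 3′ chemistry, which counts molecules as UMIs (unique molecular identifiers). The paper describes no treatment, transgene or deletion for these libraries, and states that its mice were fed a normal chow diet. All sample titles end in CD, which the labels do not explain. With 1 pool per segment, segment and library cannot be told apart. Cell classes and villus positions were therefore compared within the 3 libraries, and p-values measure how these within-library differences vary over the 3 pools. As the pools are different segments, this spread includes differences between segments and does not measure the spread between mice.

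Citrulline is made from glutamine and proline in the mitochondria of the small intestinal epithelium. Ornithine aminotransferase (Oat) links glutamate and proline to ornithine, carbamoyl phosphate synthetase (Cps1) supplies carbamoyl phosphate, and ornithine transcarbamylase (Otc) joins both into citrulline. Argininosuccinate synthase (Ass1) and argininosuccinate lyase (Asl) turn citrulline into arginine, a step that in adults is mostly carried out by the kidney. The mitochondrial arginase (Arg2) splits arginine into ornithine and urea, and ornithine decarboxylase (Odc1) opens the path from ornithine to the polyamines, which growing cells need.

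Limits on UMIs, genes and mitochondrial share kept 4255 of 9501 barcodes (duodenum), 4360 of 8139 (jejunum) and 8071 of 9595 (ileum), 16686 in all. In the same order the median depth was 12424, 11737 and 5536 UMIs per cell, and the median mitochondrial share was 27.1%, 27.2% and 11.1%. Pairs of libraries shared 4 to 12 of the kept barcodes. Clustering without the members and their pathway genes gave 10668 enterocytes, 986 early enterocytes, 224 stem and proliferating crypt cells (ISC/proliferating), 750 goblet cells, 302 tuft cells, 170 enteroendocrine cells (EECs), 1222 T cells, 526 B cells and 87 IgA B cells. Another 1697 cells (10.2%) stayed unnamed because fewer than 2 of their 10 leading genes were markers of their type or as many were markers of another. Enterocytes, the bulk of the cells, were exempt from this rule, and 7 of their 9 clusters (7630 cells) had no enterocyte marker among the leading genes. Each of the 9 clusters had all 13 enterocyte markers detected and no leading marker of another type. One of 2229 cells was led by hemoglobin genes (Hbb-bs, Hba-a1) and one of 340 cells by interferon-response genes (Ifit1, Rsad2). Enterocyte RNA was also counted in other classes. Leaving out early enterocytes, the median level of 13 enterocyte markers lay between 1.10% of the enterocyte level (Paneth cells of the ileum) and 28.9% (T cells of the duodenum).

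By the GENCODE M21 annotation of GRCm38, Cps1 lies on chromosome 1 (67123026 to 67231259, plus strand), Otc on chromosome X (10252305 to 10321024, plus), Ass1 on chromosome 2 (31470207 to 31520672, plus) and Asl on chromosome 5 (130011258 to 130029247, minus). Arg2 lies on chromosome 12 (79130777 to 79156301, plus), Oat on chromosome 7 (132557478 to 132576398, minus) and Odc1 on the same chromosome as Arg2 (17544794 to 17551505, plus). Arg2 overlaps Vti1b and a non-coding gene on the opposite strand, Oat overlaps Fgfr2 on its own strand, and Odc1 holds a small nucleolar RNA. The other 4 members overlap no annotated gene.

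Promoters of 4 members were at hand from RefSeq (GRCm38.p6), each from 250 bases before to 50 bases after the start used there, printed 5′ to 3′ along the gene's own strand. For Ass1 and Odc1 this start differs from the GENCODE start given above. All 4 are printed. Otc and Oat fell from villus base to tip, Odc1 moved the other way, and Ass1 was nearly missing from enterocytes. Capitals mark 5 short motifs searched on both strands, namely CAAAGT (core letters known to the enterocyte factor HNF4), CACGTG (an E-box), TATAAA (the TATA box), CCAAT (the CCAAT box) and GGGCGG (the GC box).
Otc, chrX:10252055-10252354, plus strand: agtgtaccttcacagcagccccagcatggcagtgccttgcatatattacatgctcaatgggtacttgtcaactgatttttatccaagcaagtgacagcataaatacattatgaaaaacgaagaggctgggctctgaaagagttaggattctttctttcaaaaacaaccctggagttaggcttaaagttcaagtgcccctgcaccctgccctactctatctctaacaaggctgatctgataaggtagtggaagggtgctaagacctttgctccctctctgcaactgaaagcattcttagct
Oat, chr7:132576349-132576648, minus strand: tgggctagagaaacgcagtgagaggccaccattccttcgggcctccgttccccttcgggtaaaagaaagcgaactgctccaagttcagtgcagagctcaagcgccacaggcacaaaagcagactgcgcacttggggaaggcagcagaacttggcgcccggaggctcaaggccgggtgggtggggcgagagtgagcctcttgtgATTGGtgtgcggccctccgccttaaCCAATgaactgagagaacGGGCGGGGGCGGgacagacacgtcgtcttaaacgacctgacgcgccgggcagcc
Odc1, chr12:17544623-17544922, plus strand: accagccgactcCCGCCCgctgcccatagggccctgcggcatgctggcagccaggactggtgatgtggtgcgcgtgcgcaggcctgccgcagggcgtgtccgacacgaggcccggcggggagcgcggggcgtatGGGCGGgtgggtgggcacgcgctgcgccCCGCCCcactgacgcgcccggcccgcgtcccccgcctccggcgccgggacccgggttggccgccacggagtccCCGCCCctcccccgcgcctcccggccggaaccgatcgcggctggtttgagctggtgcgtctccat
Ass1, chr2:31470020-31470319, plus strand: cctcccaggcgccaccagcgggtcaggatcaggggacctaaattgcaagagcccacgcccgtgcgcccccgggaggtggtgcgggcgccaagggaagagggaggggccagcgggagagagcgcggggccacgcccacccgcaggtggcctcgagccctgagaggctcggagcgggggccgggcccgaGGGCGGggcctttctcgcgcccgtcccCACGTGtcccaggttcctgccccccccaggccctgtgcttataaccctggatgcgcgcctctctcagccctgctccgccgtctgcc
The Otc window held none of the 5 motifs and had a GC content of 44.3%, while the windows of Oat, Ass1 and Odc1 had 61.7%, 74.0% and 78.0%. Oat held 2 copies of the CCAAT box and 2 of the GC box, Odc1 held 4 of the GC box, and Ass1 held 1 E-box and 1 GC box. Of all 32851 promoters of this length, 14.4% held the HNF4 letters, 7.15% the E-box, 13.6% the TATA box, 37.4% the CCAAT box and 35.7% the GC box. None of the 4 windows held the HNF4 letters or the TATA box. These matches describe letters only.

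The first question was where along the villus these genes were expressed. Cps1, Otc, Oat and Arg2 fell from base to tip in each of the 3 libraries, Odc1 rose in each, Asl went in different directions, and Ass1 was hardly counted. Early enterocytes and enterocytes were ordered by 9 landmark genes of the tip and 8 of the base, none of them a member, and cut into 3 zones of equal cell number (lower, middle and upper) within each library. Of 10 further genes with known villus position, 9 moved in their known direction in each library and Olfm4 did so in none. Median depth differed between lower and upper zones, with 16730 against 9108 UMIs per cell (duodenum), 16226 against 11381 (jejunum) and 7516 against 7312 (ileum). A level is the number of UMIs a gene takes among 10000 UMIs, cells being summed, and values for 3 segments follow the order duodenum, jejunum, ileum.

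The genes of citrulline synthesis shared one course. Cps1 went from 1.68 in the lower zone to 0.283 in the upper zone of the duodenum, from 0.499 to 0.0267 in the jejunum and from 0.456 to 0.0414 in the ileum. Each lower zone of Cps1 stood above all upper zones, and the duodenum was highest at both ends. Otc went from 1.89 to 0.234, from 1.94 to 0.115 and from 1.74 to 0.0570 in the same order of segments. The lower zones of Otc were close to each other, while the ratio of lower to upper zone was 8.09, 16.9 and 30.6. Oat went from 4.35 to 0.458, from 5.91 to 0.404 and from 5.89 to 0.282. Oat was steepest at the very base, where the first of 10 equal bins of cells held 8.0, 10.7 and 9.85, against 0.367, 0.393 and 0.287 in the last bin.

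Arg2, which acts on arginine, followed the same direction. Its levels went from 4.26 to 1.06, from 5.02 to 0.589 and from 2.44 to 0.235, and the ileum was lowest in each zone. Odc1, the entry to polyamines, increased from 0.429 to 0.735, from 0.599 to 2.46 and from 0.444 to 1.02. The jejunum reached 3.66 in the last bin, against 1.41 in the duodenum and 1.22 in the ileum. In the duodenum Odc1 fell from 0.590 in the first bin to 0.303 in the second. It then rose from 0.327 in bin 6 to 0.572 in bin 9, and only the last bin stood above the first. Asl went from 0.187 to 0.207, from 0.272 to 0.360 and from 0.278 to 0.140, so that between zones it rose in the jejunum and fell in the ileum. In the duodenum the counting intervals of lower and upper zone overlapped (0.169 to 0.206 and 0.181 to 0.234). The jejunum showed no steady rise, with 0.254 in the first bin, 0.423 in bin 7 and 0.252 in the last. Ass1 had 18 UMIs in all lower zones together and 8 in all upper zones.

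**Figure D1:**
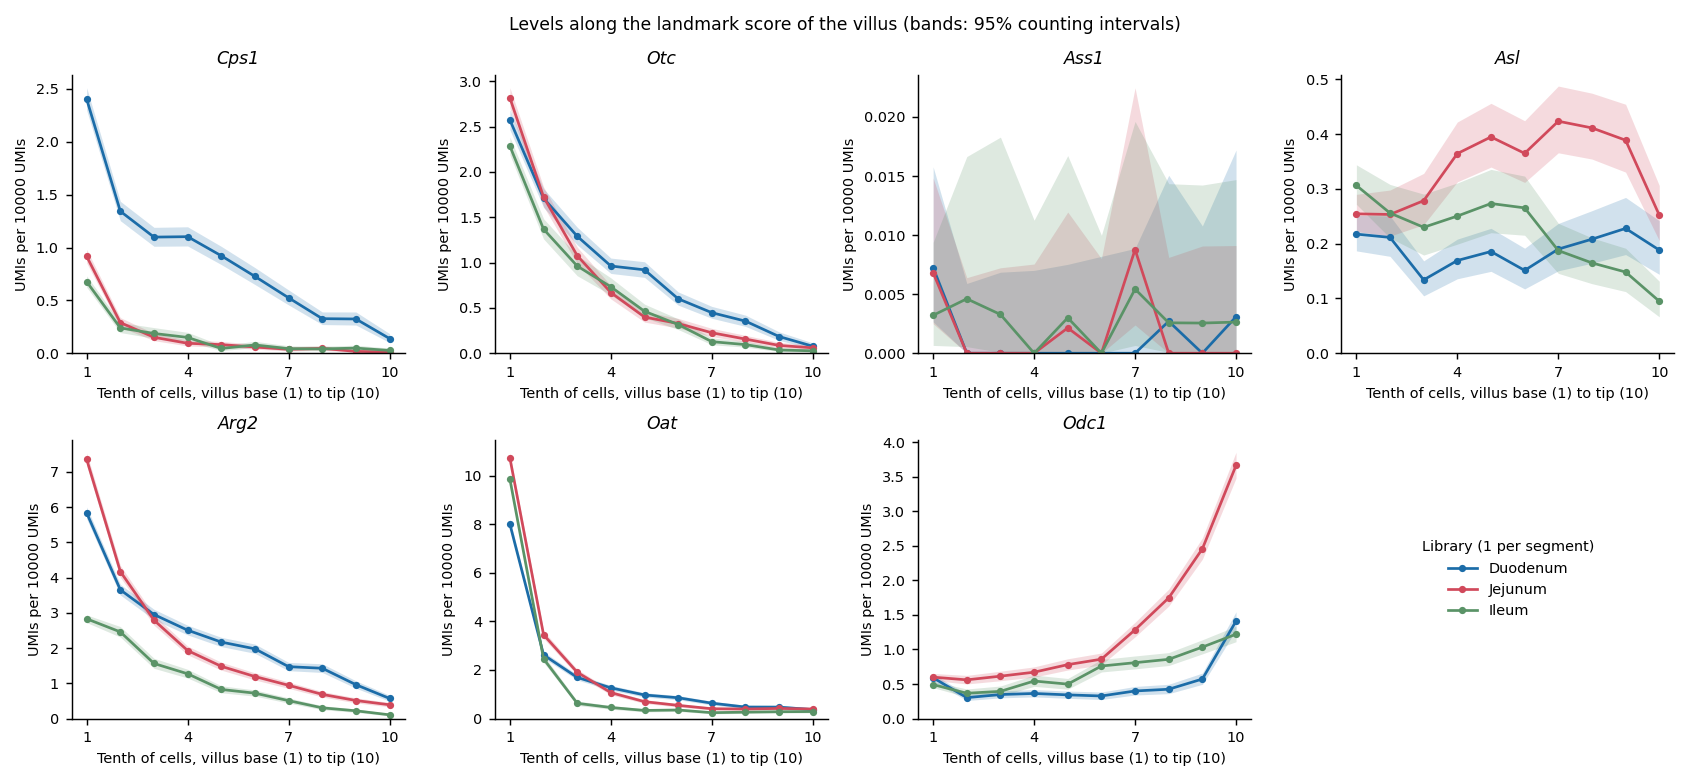
UMIs per 10000 UMIs of each member (vertical axis) in 10 equal bins of absorptive cells from villus base to tip (horizontal axis), 1 line per library, with 95% counting intervals. Cps1, Otc, Arg2 and Oat start at their highest level in the first bin in each library, and Odc1 is highest in the last bin, at 1.41, 3.66 and 1.22.

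These shifts were tested with edgeR's quasi-likelihood test on summed UMIs, with the library as a block and p-values adjusted (Benjamini-Hochberg) over 11397 genes. The background of this comparison is broad, as 28.4% of all genes were called higher in the upper zone and 33.1% lower. Of the 7 members, 6 passed the filter on low counts, 1 was called higher and 4 lower, and Ass1 was not tested. The median log2 fold change was -2.67 over these 6 and -0.09 over all genes. The log2 fold change, upper over lower zone, was -3.51 ± 0.28 for Otc (SE; adjusted p = 6.05e-05), -3.42 ± 0.30 for Oat (7.51e-05), -2.98 ± 0.33 for Cps1 (0.00018), -2.36 ± 0.21 for Arg2 (8.1e-05) and 1.79 ± 0.29 for Odc1 (0.00096). Asl gave 0.32 ± 0.25 (0.278), stood at -0.13 without TMM scaling, and reached 0.68 (0.044) without the ileum library. Early enterocytes made up 20.1% to 28.6% of the lower zones. Without them the log2 fold change was -3.09 for Otc, -1.68 for Oat, -2.0 for Cps1, -1.95 for Arg2 and 1.99 for Odc1, all still called. Without the library block the call for Cps1 was lost (-2.59, 0.131).

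Genes around the members came from 4 lists with 51 genes, of which 38 were tested here, 22 being called lower and 5 higher, with a median log2 fold change of -0.90. Over all genes 33.1% were called lower and 28.4% higher. Of the 12 tested genes of glutamate and proline metabolism, 8 were called lower and 1 higher. Aldh18a1, which makes the precursor of ornithine from glutamate, fell from 1.39 to 0.231, from 1.05 to 0.0695 and from 0.515 to 0.0258 (log2 fold change -3.12 ± 0.27, adjusted p = 6.89e-05). Nags, whose product activates Cps1, changed by -0.56 ± 0.12 (0.00407), and Aldh4a1, an enzyme of proline breakdown, by 1.90 ± 0.28 (0.00059). Aldh4a1 was highest in the middle zone of the jejunum (0.823) and the ileum (0.482), and in the upper zone of the duodenum (0.698). Prodh, also an enzyme of proline breakdown, was called lower, going from 0.358 to 0.123, from 0.241 to 0.0274 and from 0.364 to 0.0211. Of 9 tested transport genes, 6 were called lower and 1 higher. Slc25a15, the mitochondrial ornithine carrier, went from 1.63 to 0.641, from 1.59 to 0.222 and from 1.11 to 0.142 (-1.87 ± 0.31, 0.00106).

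The called list genes with the largest changes lay outside citrulline synthesis. Ddah2, a relative of the enzyme that breaks down methylated arginine, rose (4.69 ± 0.43, 8.57e-05) with 18 UMIs in the lower and 211 in the upper zones. Smox, spermine oxidase, rose from 0.00692 to 0.111, from 0.0356 to 0.525 and from 0.0851 to 1.13 (4.39 ± 0.30, 3.33e-05). Agmat, named for agmatine breakdown, fell (-3.96 ± 0.45, 0.000201) with 498 UMIs in the lower and 15 in the upper zones. Srm, spermidine synthase, fell (-3.14 ± 0.49, 0.000853) with 132 and 7 UMIs. Of 13 tested polyamine genes, 5 were called lower and 2 higher (Smox and Azin1, which frees Odc1 from its inhibitor), and of 4 tested genes of other arginine use, 3 were lower and 1 was higher.

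**Figure D2:**
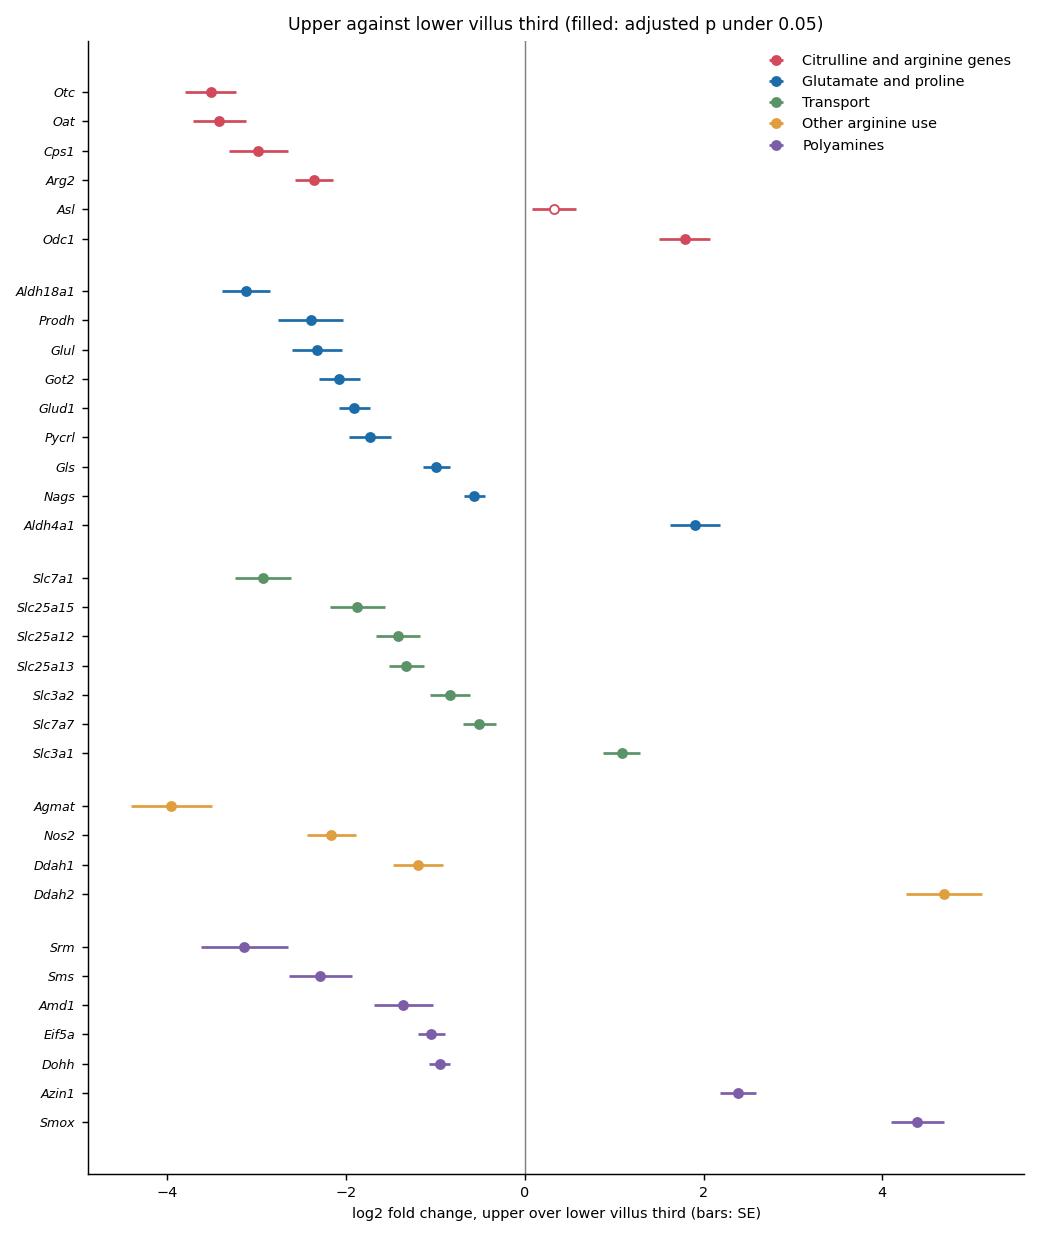
Log2 fold change of the upper over the lower villus zone (horizontal axis, bars are SE) for the tested members and the called pathway genes, filled where the adjusted p was under 0.05. Otc, Oat, Cps1 and Arg2 lie between -3.51 and -2.36, while Odc1 lies at 1.79.

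The second question was how crypt cells compare with enterocytes. Cps1 was highest in ISC/proliferating cells, Oat was high in these and in early enterocytes, and Arg2 was highest in early enterocytes. Cps1 had 8.27, 7.08 and 4.41 in ISC/proliferating cells, 2.44, 1.10 and 0.696 in early enterocytes, and 0.808, 0.106 and 0.0880 in enterocytes. The order of these classes was the same in each library, and their counting intervals did not overlap. At 800 UMIs per cell, 37.9% of ISC/proliferating cells, 10.0% of early enterocytes and 2.11% of enterocytes would keep a Cps1 UMI, against 0.528% of T cells, which should lack the gene. Without thinning these shares were 88.4%, 77.3%, 19.6% and 2.70%, at median depths of 18144, 24390, 9904 and 4263 UMIs per cell.

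Oat had 13.9, 13.3 and 10.9 in ISC/proliferating cells, 8.34, 12.4 and 10.4 in early enterocytes, and 1.15, 1.32 and 0.439 in enterocytes. The first 2 classes were close in the jejunum and the ileum, and both stood far above enterocytes. Otc had 2.03, 2.27 and 2.60 in ISC/proliferating cells, 2.62, 2.99 and 2.26 in early enterocytes, and 0.834, 0.657 and 0.457 in enterocytes, so that the first 2 classes changed order in the ileum. Arg2 had 5.96, 8.13 and 2.90 in early enterocytes and 2.16, 1.84 and 0.862 in enterocytes. In ISC/proliferating cells Arg2 had 1.89 in the duodenum and 1.45 in the jejunum but 0.148 in the ileum, from 24 UMIs in 92 cells. Odc1 had 1.22, 1.63 and 1.46 in ISC/proliferating cells against 0.454, 1.28 and 0.718 in enterocytes, and Asl 0.182, 0.293 and 0.291 against 0.180, 0.341 and 0.205.

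**Figure D3:**
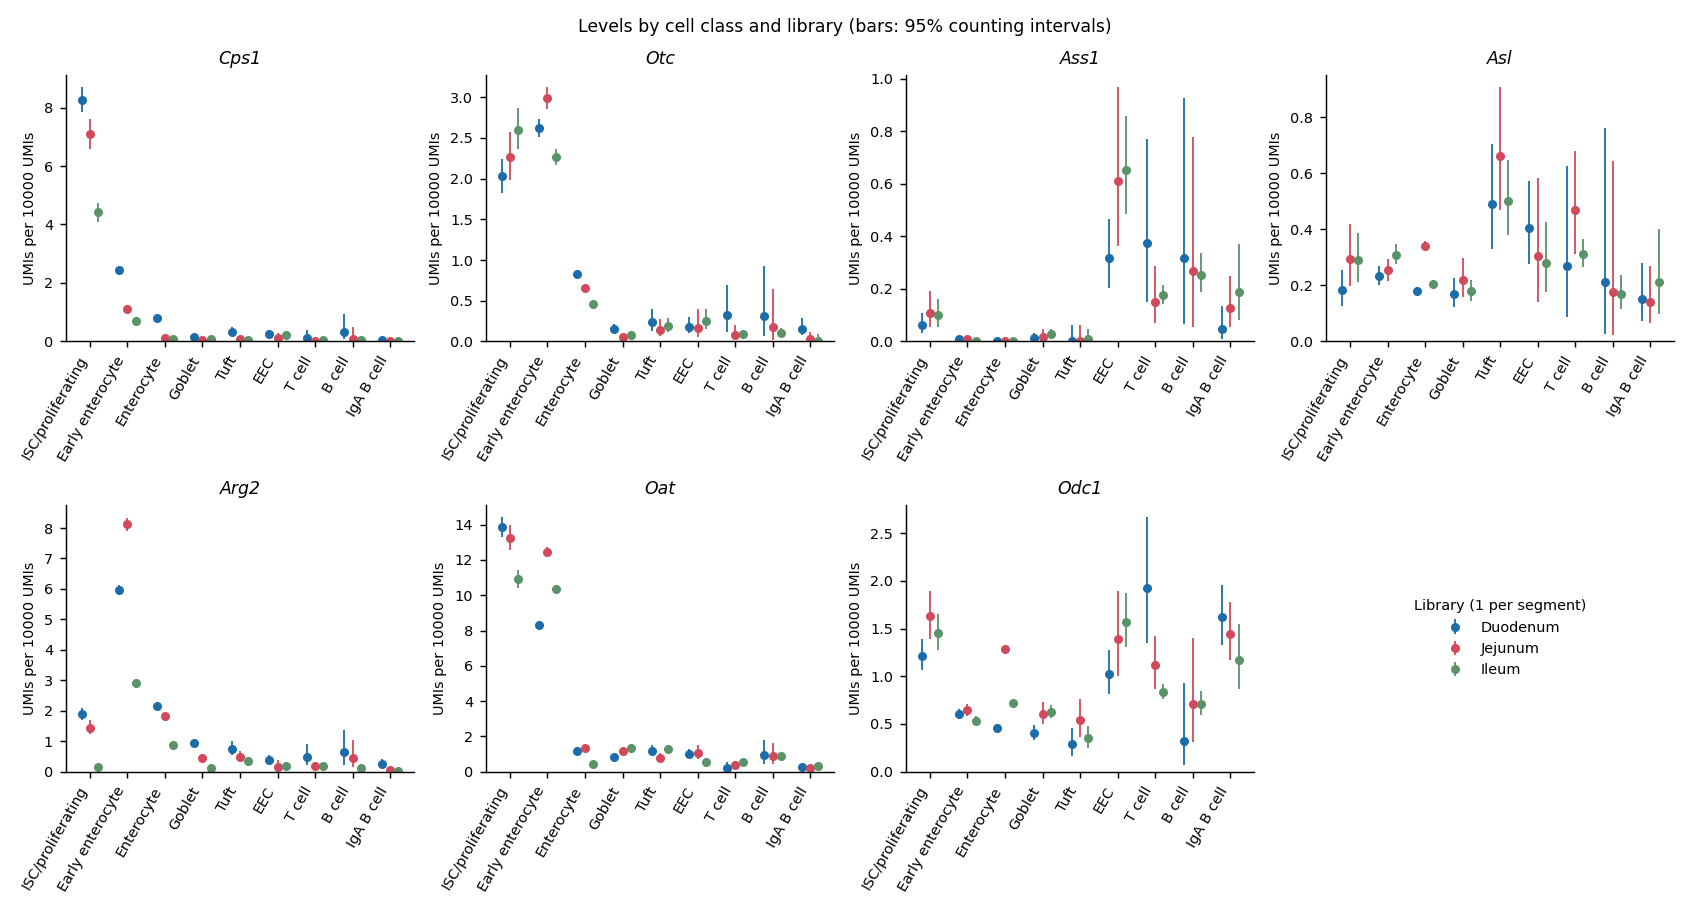
UMIs per 10000 UMIs of each member (vertical axis) by cell class, 1 point per library, with 95% counting intervals as bars. Cps1 reaches 8.27 in ISC/proliferating cells of the duodenum, Arg2 8.13 in early enterocytes of the jejunum, and Ass1 0.652 in EECs of the ileum.

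In the test of ISC/proliferating cells against enterocytes, over 11468 genes, 32.9% of all genes were called higher and 34.2% lower. All 7 members were tested, and 4 were called higher and 2 lower, with a median log2 fold change of 1.11 against -0.03 over all genes. The log2 fold change was 4.17 ± 0.38 for Cps1 (adjusted p = 8.14e-10), 2.94 ± 0.34 for Oat (4.12e-08), 1.11 ± 0.29 for Otc (0.00172), 4.99 ± 0.50 for Ass1 (3.33e-09), -1.52 ± 0.38 for Arg2 (0.00119) and -0.68 ± 0.23 for Asl (0.0109). Odc1 gave 0.08 ± 0.30 (0.829). The scaling mattered here, since without TMM the median of all genes moved to 0.72, Odc1 was called higher (0.87, 0.00796), Asl stood at 0.10 (0.721) and Arg2 lost its call (-0.76, 0.0766). Arg2 also lost it without the block (-1.23, 0.14), and Asl without the jejunum library (-0.42, 0.244) and in DESeq2 (-0.37, 0.183). Otc gave 0.80 (0.054) in cells with at most 20% mitochondrial UMIs.

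Of the 42 tested list genes, 15 were called higher in ISC/proliferating cells and 15 lower, beside 32.9% and 34.2% of all genes. Among polyamine genes 6 of 14 were higher and 3 lower, among transport genes 3 of 10 and 5, among glutamate and proline genes 5 of 13 and 4, and among genes of other arginine use 1 of 5 and 3. Srm had 0.391, 0.723 and 0.526 in ISC/proliferating cells against 0.00122, 0.00203 and 0.00487 in enterocytes (6.88 ± 0.41, adjusted p = 1.01e-12). The glutamine transporter Slc1a5 (5.26 ± 0.37, 8.31e-12) and the amino acid carrier Slc7a6 (5.18 ± 0.67, 2.44e-07) were higher. Slc3a1, part of the brush-border carrier of cationic amino acids, was lower (-4.48 ± 0.39, 3.53e-10).

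The third question was which members the secretory and immune classes express. Otc and Arg2 were lower than in enterocytes in goblet cells, tuft cells, EECs and T cells, Cps1 was lower in 3 of these 4 classes, and Ass1 was higher in 3 of them. In goblet cells 19.0% of all genes were called higher and 23.3% lower, and of the 7 members 1 was higher and 3 were lower (median -0.58 against -0.08 over all genes). In tuft cells 24.2% and 26.5% of all genes were called, and 1 member was higher and 4 were lower (-1.56 against -0.07). In EECs it was 28.0% and 28.8% of genes, with 1 member higher and 3 lower (-0.96 against -0.02), and in T cells 31.9% and 34.8%, with 1 member higher and 4 lower (-1.98 against -0.10).

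Otc had 0.157, 0.0587 and 0.0772 in goblet cells of the 3 segments and 0.321, 0.0839 and 0.0967 in T cells, each below the enterocytes of its segment. The log2 fold change against enterocytes was -2.75 ± 0.34 in goblet cells (adjusted p = 2.74e-07), -2.33 ± 0.37 in tuft cells (7.75e-06), -2.43 ± 0.38 in EECs (5.73e-06) and -3.22 ± 0.40 in T cells (1.01e-07). Enterocyte markers stood at 6.63% to 12.4% of the enterocyte level in goblet cells and at 8.60% to 28.9% in T cells, and their part in the remaining levels was not tested. Arg2 differed by -1.92 ± 0.39 in goblet cells (0.000233), -2.19 ± 0.42 in tuft cells (8.73e-05), -3.43 ± 0.47 in EECs (9.29e-07) and -3.21 ± 0.44 in T cells (5.29e-07). Without the block the Arg2 call in goblet cells was lost (-1.70, 0.0745).

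Cps1 differed by -1.47 ± 0.40 in goblet cells (adjusted p = 0.00415), -1.56 ± 0.47 in tuft cells (0.00762) and -2.35 ± 0.49 in T cells (0.000153), and gave -0.99 ± 0.46 in EECs (0.0692). The call in goblet cells was lost without the duodenum library (-0.72, 0.147), and in tuft cells without TMM (-0.97, 0.105) and without the block (-1.90, 0.0517). In EECs the value was 0.14 (0.825) without the duodenum library, and it was called without the ileum library (-1.67, 0.00962) and without the filter on low genes (-1.15, 0.00672).

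Oat had 0.815, 1.15 and 1.32 in goblet cells (log2 fold change 0.14 ± 0.33, adjusted p = 0.759), above enterocytes in the ileum and below them in the other segments. In the fit over the 3 libraries it was lower in T cells, with 0.214, 0.403 and 0.542 (-1.98 ± 0.37, 4.12e-05), and in EECs, with 1.01, 1.06 and 0.575 (-0.96 ± 0.35, 0.0218). In the ileum both levels lay above the 0.439 of enterocytes, so that the lower values held in the duodenum and the jejunum. The EEC call was lost without TMM (-0.13, 0.745), in DESeq2 (-0.58, 0.185), without the duodenum library (-1.05, 0.074) and without the jejunum library (-0.77, 0.178). In tuft cells Oat gave -0.41 (0.336) and was called without the ileum library (-0.83, 0.0287).

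Odc1 was lower in tuft cells, with 0.287, 0.540 and 0.352 (-1.65 ± 0.34, adjusted p = 0.0002). EECs had 1.03, 1.40 and 1.57, each above the enterocytes of its segment, and T cells 1.93, 1.12 and 0.838. The duodenum held only 34 T cells, so that all its T cell levels rest on few cells. In its T cell clusters single cells held 11 of 17 and 10 of 19 Odc1 UMIs. The fitted values were -0.06 (0.89) in EECs and -0.31 (0.403) in T cells, against 0.78 (0.0225) and 0.60 (0.0773) without TMM. Without the duodenum library Odc1 was called lower in T cells (-0.96, 0.00381) and in goblet cells (-0.75, 0.0282), where it otherwise gave -0.58 (0.124) and, without the filter, -0.67 (0.0459).

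Asl, the last enzyme of arginine synthesis, was counted at a low level in most classes. Tuft cells had 0.490, 0.662 and 0.501 against 0.180, 0.341 and 0.205 in enterocytes, so that each library was higher. The difference was called (0.59 ± 0.23, adjusted p = 0.0342), but not without the duodenum library (0.46, 0.187), without the ileum library (0.65, 0.0929), without the block (0.54, 0.109), with 2 classes in the fit (0.56, 0.0691), without the filter (0.47, 0.208) or without the tuft cells richest in enterocyte markers (0.56, 0.0957). In goblet cells Asl gave -0.38 (0.175), in EECs -0.26 (0.395) and in T cells -0.33 (0.229), the last 2 turning to 0.56 (0.0536) and 0.55 (0.0444) without TMM.

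**Figure D4:**
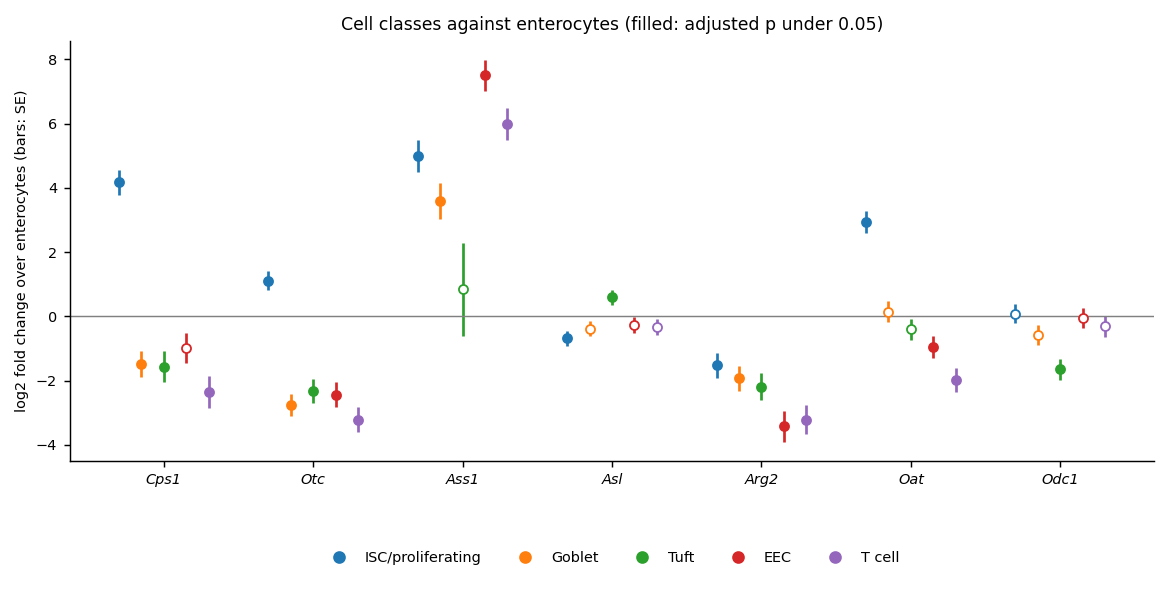
Log2 fold change over enterocytes (bars are SE) of each member in 5 cell classes, filled where the adjusted p was under 0.05. Ass1 stands at 7.50 in EECs and 5.99 in T cells, while Otc and Arg2 lie below 0 in goblet cells, tuft cells, EECs and T cells.

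Ass1 had a distribution of its own. Enterocytes held 2 UMIs of it in 3255 cells, 6 in 3339 and 9 in 4074, and early enterocytes held 14 in 986 cells. EECs had 0.317, 0.613 and 0.652 per 10000, with UMIs in 40 of 170 cells and at most 11 in 1 cell. T cells had 0.375, 0.151 and 0.176, B cells 0.317, 0.267 and 0.254, and ISC/proliferating cells 0.0606, 0.107 and 0.0989, all above the enterocytes of their segment. The duodenum held only 34 T cells and 33 B cells, and the jejunum 23 B cells, so that these levels rest on few UMIs. The log2 fold change over enterocytes was 7.50 ± 0.49 in EECs (adjusted p = 5.69e-12), 5.99 ± 0.50 in T cells (1.6e-10) and 3.60 ± 0.56 in goblet cells (7.83e-06), and these sizes rest on the 17 UMIs of enterocytes. Tuft cells held 1 UMI in 302 cells (0.84 ± 1.44, 0.667). At 800 UMIs per cell, 2.66% of EECs, 1.61% of T cells and 1.83% of B cells would keep an Ass1 UMI, against 0.0149% of enterocytes, and without thinning the shares were 23.5%, 7.69%, 7.98% and 0.159%, at median depths of 6176, 4263, 3117 and 9904 UMIs.

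Ass1 was uneven among immune cells. The T cell cluster led by Ms4a4b, Cd8b1 and Trbc2 had 0.402 over 474 cells, and the one led by Gzma, Ccl5 and Cd7 had 0.0672 over 748 cells. A small unnamed cluster led by Lyz2, Il1b and H2-Eb1 held 201 of the 631 Ass1 UMIs (31.9%) in 0.497% of kept cells, with UMIs in 29 of its 83 cells. This cluster had 0.169 (2 UMIs in 1 of 9 duodenal cells), 1.06 (9 UMIs in 2 of 7 jejunal cells) and 1.80 (190 UMIs in 26 of 67 ileal cells). The duodenal value lies below the level of 3 UMIs (0.254), and 1 ileal cell held 30 UMIs. Another unnamed cluster of 22 cells, led by Cst3, Il12b and Gm2a, had 0.711. Cells named macrophage/monocyte held no Ass1 UMI in 30 cells, which allows a level of up to 0.0966 (that of 3 UMIs). This name depends on the clustering. At resolution 1.2 instead of 0.8, a cluster of 185 cells was named macrophage/monocyte, with Lyz2, Il1b and H2-Eb1 among its leading genes. The Ass1 level of that cluster is not given here, so the 30 cells do not show that macrophages or monocytes lack Ass1.

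Transport genes called higher in each of goblet cells, tuft cells, EECs and T cells were Slc1a5, Slc7a1 and Slc7a6. Slc1a5 gave 5.52 ± 0.37 in goblet cells (adjusted p = 9.9e-12), 5.35 ± 0.38 in tuft cells (2.08e-11) and 4.53 ± 0.38 in T cells (2.03e-10). Slc7a6 gave 6.42 ± 0.62 in goblet cells (6.92e-09), 5.12 ± 0.82 in tuft cells (8.92e-06), 5.23 ± 0.84 in EECs (8.93e-06) and 5.66 ± 0.67 in T cells (4.94e-08), with 8 UMIs in all enterocytes. Glul, glutamine synthetase, had 1.28, 1.67 and 1.49 in goblet cells against 0.0523, 0.0174 and 0.118 in enterocytes (4.72 ± 0.45, 5.06e-09), and Pycr1, a proline-making reductase, gave 5.10 ± 0.76 (1.11e-05) from 21 and 5 UMIs. Glul was also called higher in tuft cells, EECs and ISC/proliferating cells, and Pycr1 in EECs and ISC/proliferating cells.

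Tuft cells had more Azin2, which inhibits the Odc1 antizyme (4.89 ± 0.62, adjusted p = 1.81e-06), and more Srm (4.00 ± 0.62, 6.3e-06). T cells had more Srm (5.36 ± 0.43, 7.52e-11). Neither gene was particular to these classes. Azin2 was also called higher in EECs and T cells, and Srm also in goblet cells, EECs and ISC/proliferating cells. EECs had more Gatm, the first enzyme of creatine synthesis (8.32 ± 0.73, 1.25e-08, from 127 and 12 UMIs). Nos2, the inducible nitric oxide synthase, was lower in EECs (-4.87 ± 0.75, 6.29e-06), with 0.479 in enterocytes of the ileum and no UMI in those of the duodenum. Goblet, tuft, T and ISC/proliferating cells were also called lower for Nos2. Of the 42 tested list genes, 10 were called higher and 17 lower in goblet cells, 14 and 18 in tuft cells, 16 and 16 in EECs, and 12 and 19 in T cells. The shares over all genes were 19.0% and 23.3% in goblet cells, 24.2% and 26.5% in tuft cells, 28.0% and 28.8% in EECs, and 31.9% and 34.8% in T cells.

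Within EECs, Ass1, Arg1 and Gatm were counted by hormone subtype. Subtypes followed the hormone thresholds of the study for Gip (K), Nts (N), Tph1 (EC), Gcg (L), Cck (I) and Sst (D), and are described with no test because the cells are few and pooled over libraries. Ass1 had 0.877 in K cells (28 UMIs in 11 of 21 cells), 0.685 in N cells (35 UMIs in 15 of 60 cells) and 0.374 in EC cells, and no UMI in 12 I cells. Of the 14 Ass1 UMIs in EC cells, 12 came from 4 duodenal cells. Of the N cells 53 came from the ileum and none from the duodenum. Arg1, the cytosolic arginase, had 9 UMIs in 10668 enterocytes but 1.96 per 10000 in D cells, with UMIs in 8 of 9 cells, and 0.400 in EC cells. Of the 47 Arg1 UMIs in EECs, 45 came from the duodenum, which held 6 of the D cells. Gatm had 2.38 in K cells, with 28, 13 and 35 UMIs in the 3 segments, against 0.431 in N cells.

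**Figure D5:**
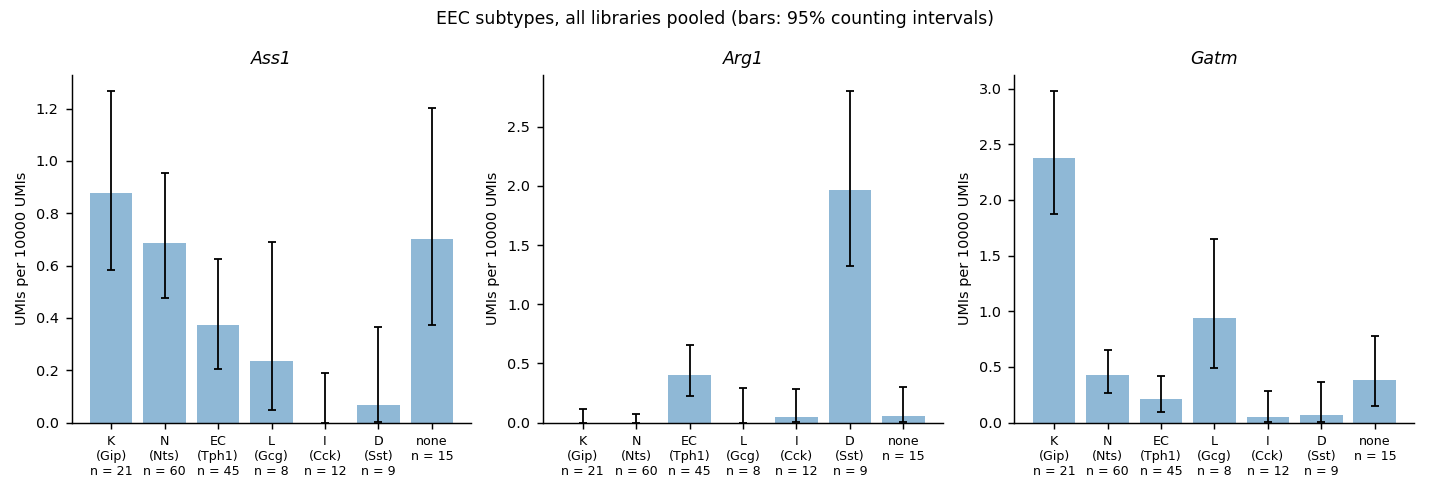
UMIs per 10000 UMIs (vertical axis) of Ass1, Arg1 and Gatm by EEC subtype, all libraries pooled, with 95% counting intervals as bars. Arg1 stands at 1.96 in D cells, and Ass1 and Gatm stand at 0.877 and 2.38 in K cells.

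The last question was how the segments differ, with 1 library each and hence no test. In enterocytes 4 of the 7 members were higher in the duodenum than in the ileum with counting intervals that did not overlap (Cps1, Otc, Arg2 and Oat), and 1 was higher in the ileum (Odc1). By the same measure 38.8% of all genes were higher in the duodenum and 33.3% in the ileum, so such separation is common. Cps1 had a duodenum level 9.18 times that of the ileum and 7.59 times that of the jejunum. In ISC/proliferating cells its ratio of duodenum to ileum was 1.87, in early enterocytes 3.51 and in the middle villus zone 12.1. Otc had a ratio of 1.83 in enterocytes, 1.09 in the lower and 4.10 in the upper zone. Oat had a ratio of 2.63 in enterocytes, 2.82 in the middle zone and 0.739 in the lower zone, the last being 1.01 in cells with at most 20% mitochondrial UMIs. Arg2 had 2.5 in enterocytes (4.26 in cells with at most 20% mitochondrial UMIs) and 12.8 in ISC/proliferating cells.

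Odc1 and Asl were highest in enterocytes of the jejunum. The ratio of jejunum to duodenum for Odc1 was 2.82 in enterocytes, 3.34 in the upper and 1.40 in the lower zone. Asl had 0.341 in the jejunum against 0.180 and 0.205. In lower zones alone 3 members were higher in the duodenum and 2 in the ileum, in middle zones 4 and 2, and in upper zones 5 and 1. With at most 20% mitochondrial UMIs, 4 and 1 members separated in enterocytes. The share over all genes was taken for all enterocytes only. The counts by zone and under this limit therefore have no background and are not a result about the members. With the same limit, the duodenum to ileum ratio of Odc1 in the upper zone went from 0.719 to 1.06. That of Arg2 in the middle zone went from 2.53 to 3.91. The ileum library also had the lowest median depth and mitochondrial share, and their part in these differences was not tested.

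Across 29 sums of library and class, Cps1, Otc and Oat had similar patterns. Pearson's r of the log2 levels was 0.88 for Cps1 and Otc, 0.88 for Cps1 and Oat, 0.86 for Otc and Oat and 0.79 for Otc and Arg2, while Ass1 had -0.49 with Arg2 and 0.48 with Odc1. The sums share 3 libraries and the enterocyte background, so these values are descriptions. Among 8453 genes, Cps1 was closest to Dmbt1 (0.93), Nfib (0.93) and Rbp7 (0.92). Dmbt1 and Rbp7 are on the marker list of early enterocytes, but Dmbt1, Nfib and Rbp7 each had their highest sum in ISC/proliferating cells. Otc was closest to Lad1 (0.94), Nlrp6 (0.93) and Ccl25 (0.93), Oat to Nlrp6 (0.90), Rbp7 (0.90) and Far2 (0.89), and Arg2 to Smim24 (0.91), Mdh2 (0.91) and Rdh7 (0.91). Ass1 came closest to Gem (0.87), Trim35 (0.85) and Gm26782 (0.85), Asl to Tpgs1 (0.83), Ctsa (0.83) and Atox1 (0.82), and Odc1 to Tssc4 (0.69), Pold2 (0.66) and Impdh1 (0.64).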

How the data were processed

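The submitters' processing notes name Cell Ranger 3.0.2 and GRCm38/mm10, and the authors deposited raw UMI counts per gene and cell. The members and lists were chosen with earlier results of these data known. Kept cells had 200 to 6000 genes, 800 to 50000 UMIs and a mitochondrial share of up to 40%. They were integrated and clustered with Seurat 5.3.0 in R 4.3.3 (2000 variable genes, 30 components, resolution 0.8). Clusters were named by marker lists, with hormones left out of the leading genes, a choice made after the clusters were seen. No doublet caller was run. Intervals are exact at 95% (Poisson for levels) and cover counting error only, and shares at 800 UMIs are exact expectations. UMIs were summed per library and class or zone (at least 10 cells) and tested in edgeR 4.0.16 (filterByExpr, TMM, quasi-likelihood, Benjamini-Hochberg, threshold 0.05). The same 3 libraries give all classes and zones, so the library was a block by design, and the residual spread holds differences between segments. DESeq2 1.42.0 was an alternative. In simulated data with 200 genes changed by a log2 fold change of 1, the test found 59.5% between lower and upper zones, 22.5% for ISC/proliferating cells, 32.5% for goblet cells, 11% for tuft cells and for EECs, and 16.5% for T cells. All members are named, and per comparison the 4 called list genes with the largest absolute change, except 1 that is not reported here. Aldh18a1, Nags, Aldh4a1, Prodh, Slc25a15, Azin1, Slc7a1 and, within EECs, Arg1 were named after their values were seen. Likeness is Pearson's r of log2 levels plus 0.1, with the 3 closest genes among those with a mean of at least 0.1. Of 31053 gene IDs, 30934 matched GENCODE M21.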

Additional observations from a re-analysis of the deposited data

Results flagged for a closer look

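Asl was the member whose upper and lower zones differed in opposite directions in the jejunum and the ileum. Its log2 ratio of upper over lower zone was -0.99 in the ileum (counting interval -1.24 to -0.74) and 0.41 in the jejunum (0.23 to 0.58). In the jejunum Asl was highest in bin 7 (0.423) and lowest in the last bin (0.252), so that its course was not a steady rise. The difference between the segments was not tested, as each has 1 library. The median mitochondrial share went from 15.6% in the lower to 9.0% in the upper zone of the ileum and from 28.1% to 26.5% in the jejunum, and its part in the difference was not tested.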

How the results depend on the processing

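With no replicate block, that is without pairing the sums of a library, 3529 genes were called between lower and upper zones instead of 7009. Leaving out 1 library each gave 4565 to 6921 calls between lower and upper zones and 3168 to 4530 for goblet cells against enterocytes (4850 with all), the lowest in both without the jejunum library. Without TMM the share of called genes that were higher went from 46.1% to 25.1% between lower and upper zones (median of all genes -0.55), from 49.1% to 70.5% in ISC/proliferating cells (0.72), from 47.7% to 71.6% in tuft cells (0.52), from 49.2% to 76.8% in EECs (0.79) and from 47.8% to 69.2% in T cells (0.74). In DESeq2 the share was 59.1% in ISC/proliferating cells, 59.6% in goblet cells (44.9% in edgeR), 61.7% in tuft cells and 65.4% in EECs. Of 491 values of single members under alternatives, 440 kept direction and call, 20 lost the call, 8 gained one and 23 changed sign. Without TMM, Asl turned to -0.13 between lower and upper zones, 0.10 in ISC/proliferating cells, 0.56 in EECs and 0.55 in T cells, Oat to 0.22 in tuft cells, and Odc1 to 0.78 in EECs and 0.60 in T cells. Odc1 in ISC/proliferating cells turned to -0.045 without the filter, -0.0086 without the block, -0.10 with at most 20% mitochondrial UMIs and -0.084 without the cells richest in enterocyte markers. Leaving out 1 library each gave -0.20 (no duodenum) to 0.50 (no jejunum) for Odc1 in ISC/proliferating cells, -0.32 (no ileum) to 0.50 (no jejunum) for Oat in goblet cells, and, in tuft cells, -0.83 (no ileum) to 0.11 (no jejunum) for Oat and -2.55 (no ileum) to 1.21 (no jejunum) for Ass1. In EECs it gave -1.67 (no ileum) to 0.14 (no duodenum) for Cps1, -0.74 (no duodenum) to 0.069 (no jejunum) for Asl and -0.24 (no duodenum) to 0.36 (no jejunum) for Odc1. In T cells Odc1 ranged from -0.96 (no duodenum) to 0.31 (no jejunum), with 0.029 without the ileum library. In DESeq2, Asl turned to 0.10 and Odc1 to 0.29 in EECs, and Odc1 to 0.0072 in T cells. The causes were not tested. The alternatives that add the unnamed absorptive-like cluster or leave out the 10% of cells with most enterocyte markers were chosen after seeing the data. Ass1 in enterocytes is limited by 17 UMIs.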

Other observations

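Some classes were too small for the comparisons. In 24 Paneth cells there were 5 UMIs of Ass1, 3 of Asl, 5 of Arg2, 6 of Otc, 27 of Oat and 16 of Odc1, and all 11 UMIs of Cps1 came from 1 cell of the duodenum. In 30 macrophage/monocyte cells Odc1 had 1.29, Oat 0.644 and Asl 0.515 UMIs per 10000 UMIs, from 40, 20 and 16 UMIs, and Gatm had 2.03. Of the 40 Odc1 UMIs, 20 came from 1 cell. In 87 IgA B cells Odc1 had 1.62, 1.45 and 1.17 (duodenum, jejunum, ileum), while over all libraries Oat had 0.262 and Cps1 0.0233.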
